A study of Homo sapiens with 4 samples.

Results

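The expression of 7 matrix metalloproteinase genes (MMP1, MMP2, MMP3, MMP9, MMP10, MMP13 and MMP14) and 3 genes for their tissue inhibitors (TIMP1, TIMP2 and TIMP3) was described in gastric carcinoma cells in which the receptor tyrosine kinase MET was inhibited or knocked down. Probes were taken by gene name, as all non-control probes of these 10 genes, and no value decided which probe entered. The genes themselves were chosen with earlier results of these data known. The array carried 1 probe for each, so 10 of 34127 probes and 10 of 19740 named genes were described. Total RNA came from Hs746T cells, an established gastric carcinoma line with amplified MET and skipping of MET exon 14, grown in DMEM with fetal bovine serum. There were 4 groups with 1 single-colour array each. Cells received the solvent DMSO, the small-molecule MET inhibitor PHA665752, the control siRNA named sc siRNA, or MET siRNA, and the methods give a harvest 48 h after siRNA transfection. The dose and duration of PHA665752 for the arrays are not given in the sources used here. All groups share the same cell line, maintenance medium and MET alleles, and 1 line limits the groups as a model. Only the siRNA groups were transfected, which the methods describe as Lipofectamine in Opti-MEM, later replaced with complete medium. Because each group was 1 array, no p-value could be given and the spread between cultures is unknown.

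Matrix metalloproteinases are zinc-dependent endopeptidases that are made as inactive proenzymes and cut components of the extracellular matrix once their propeptide is removed. Collagenases open fibrillar collagen, stromelysins cut proteoglycans, laminin and fibronectin and activate other proenzymes, gelatinases cut denatured and basement membrane collagen, and membrane-type enzymes act at the cell surface. TIMPs block the active enzymes by binding the catalytic site, and TIMP2 also bridges MMP14 and the proenzyme of MMP2 during its activation. In epithelial tumours these genes are known for their part in invasion and for their response to growth factor signalling through AP-1 and ETS transcription factors.

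The sequences just before the transcription start are shown for 3 of the 4 genes whose promoter could be matched. They are a gene that was lower with PHA665752 and lies in the chromosome 11 run of MMP genes, the membrane-type enzyme, and an inhibitor that varied little. No promoter was available for TIMP2, the inhibitor that rose. RefSeq promoters (GRCh38.p14) were matched by symbol for 4 of the 10 genes, MMP10, MMP14, TIMP1 and TIMP3. Each sequence is the 250 bases before the start, 5′ to 3′ on the strand of the gene. Capitals mark the motifs searched on both strands, which were the AP-1 consensus TGANTCA, the AP-1-like element TGAGTAA, the ETS-type PEA3 element AGGAAG, the TATA box TATAAA and the GC box GGGCGG.
MMP10, chr11:102780629-102780878, minus strand: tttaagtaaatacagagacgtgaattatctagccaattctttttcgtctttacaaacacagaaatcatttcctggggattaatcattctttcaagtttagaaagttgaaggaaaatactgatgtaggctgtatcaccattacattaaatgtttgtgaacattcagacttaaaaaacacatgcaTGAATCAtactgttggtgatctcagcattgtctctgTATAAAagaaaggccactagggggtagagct
MMP14, chr14:22836335-22836584, plus strand: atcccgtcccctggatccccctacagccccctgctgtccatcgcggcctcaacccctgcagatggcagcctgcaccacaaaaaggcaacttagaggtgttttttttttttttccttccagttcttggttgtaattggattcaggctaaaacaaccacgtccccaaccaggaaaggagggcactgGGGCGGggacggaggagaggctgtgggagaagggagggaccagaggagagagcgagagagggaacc
TIMP1, chrX:47582186-47582435, plus strand: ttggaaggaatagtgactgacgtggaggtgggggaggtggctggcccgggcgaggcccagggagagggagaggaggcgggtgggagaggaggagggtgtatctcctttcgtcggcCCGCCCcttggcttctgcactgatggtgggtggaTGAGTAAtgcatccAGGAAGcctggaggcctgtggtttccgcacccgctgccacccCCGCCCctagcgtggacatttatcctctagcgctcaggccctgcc
Counted back from the start, the MMP10 promoter held TGAATCA at -67 to -61 and TATAAA at -31 to -26. The MMP14 promoter held none of the AP-1, PEA3 or TATA letters and 1 GC box at -66 to -61. The TIMP1 promoter held TGAGTAA at -101 to -95, AGGAAG at -87 to -82 and the GC box, read on the other strand, at -135 to -130 and -45 to -40. The TIMP3 promoter, not shown, held GC boxes on both strands and none of the AP-1, PEA3 or TATA letters. Of 35116 promoters of the table, TGANTCA was held by 6.57%, TGAGTAA by 2.21%, AGGAAG by 28.7%, TATAAA by 10.7% and GGGCGG by 42.6%. A match describes the letters of the sequence and no binding was measured.

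Each array held 43118 spots and none was saturated. Between 61.1% and 68.2% of probes were well above background, lowest on the MET siRNA array, which also had the most spots left out as outliers, 5.58% against 1.69% to 2.21% on the others. The MET probe read 221451 (DMSO), 100492 (PHA665752), 190010 (sc siRNA) and 77853.5 (MET siRNA), so that MET was 1.33 lower on the log2 scale with its siRNA and 0.93 lower with PHA665752. Of 5 epithelial markers, EPCAM, KRT8, KRT18 and KRT19 were well above background on every array and CDH1 on every array but MET siRNA. Of 6 mesenchymal markers, CDH2, FN1, COL1A1 and PDGFRB were well above background on every array. COL1A1, FN1 and PDGFRB were higher with PHA665752 by 3.32, 1.96 and 2.11 on the log2 scale, and the part of such a shift in the MMP values was not tested. Of the leukocyte markers, CD3E was on no array well above background, while PTPRC (22.7 to 37.8), CD14 (113 to 140) and CD68 (7212 to 12170) were on every array, none past 2-fold in any pair. The endothelial markers PECAM1, VWF and CDH5 were well above background on every array, with log2 ratios of -2.39, 2.77 and -0.21 for PHA665752 over DMSO and -0.44, 1.13 and -0.091 for MET siRNA over sc siRNA. Their part in the MMP values was not tested.

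Signals are the processed, background-corrected intensities, and each log2 ratio was taken after each array was divided by its 75th percentile. A gene was called changed past 2-fold, a rule of size and not a test. Of the 10 genes, 7 were well above background on every array, namely MMP1, MMP3, MMP9, MMP10, MMP14, TIMP1 and TIMP2. Of the 18755 genes with a value on every array, 13073 besides MMP1 were too, a similar share. MMP2 passed on 1 array, and MMP13 and TIMP3 on none. The spot-to-spot noise of a log2 ratio was taken from the median SD of probes spotted 10 times on each array. It had an SD of 0.0780 and a 95% band of ±0.153. The band is for single spots of a typical probe and does not cover noisier probes or the culture of cells. MMP9 spots had log2 SDs of 0.0809 with sc siRNA and 0.0972 with MET siRNA, where the medians were 0.0531 and 0.0545.

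**Figure D1:**
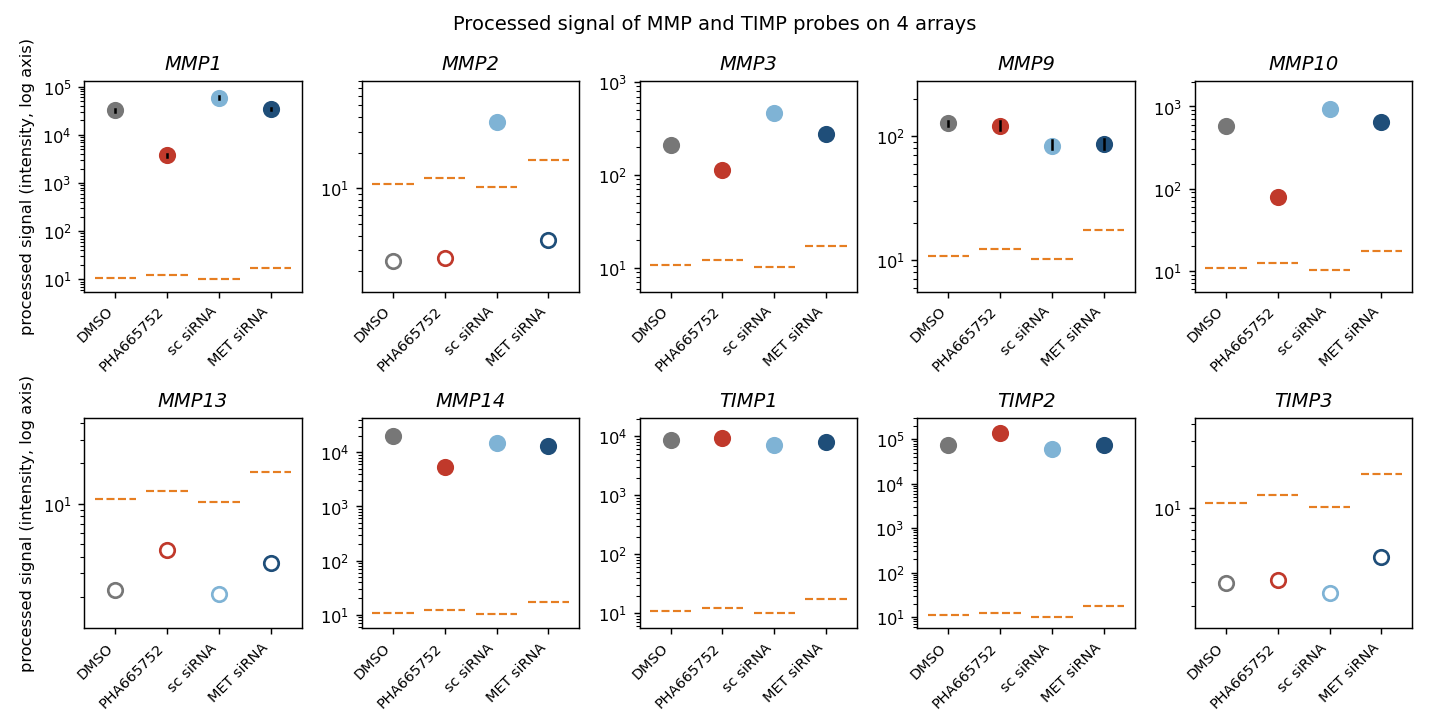
Processed signal (intensity, log axis, scaled separately in each panel) of the 10 probes on the 4 arrays. Filled points were well above background and open points were not, orange dashed lines are the lowest signal well above background on that array, and black lines give the range over repeated spots of MMP1 and MMP9. MMP1, MMP10 and MMP14 were lowest with PHA665752, TIMP2 was highest there, MMP2 stood above background with sc siRNA, and MMP13 and TIMP3 were below it throughout.

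MMP1, the interstitial collagenase that cuts native fibrillar collagen, was among the genes most lowered by PHA665752. Its signal was 32567.8 with DMSO and 3766.16 with PHA665752, and in the transfected cells 59419.3 with sc siRNA and 35114.5 with MET siRNA. The PHA665752 array was lowest by far, and the sc siRNA array highest. After scaling, MMP1 fell by 2.90 on the log2 scale with PHA665752, or 7.45-fold (SE over spots 0.0286). It was 0.81 lower with MET siRNA than with sc siRNA, a 1.75-fold difference (SE over spots 0.0260) that did not pass 2-fold. The sc siRNA array itself was 2.17-fold above DMSO. MMP1 was spotted 10 times on each array. Its unscaled spots ranged from 29944.6 to 34935.4 with DMSO and from 3504.89 to 4022.47 with PHA665752. They ranged from 54884.8 to 63281.3 with sc siRNA and from 32176.7 to 36834.9 with MET siRNA. Such ranges are repeated readings of 1 culture each. They describe the reading of spots and not the spread between cultures. On the scaled log2 axis the MET siRNA level of 5.35 lay above the DMSO level of 5.04 and below the sc siRNA level of 6.16.

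MMP10, the stromelysin-2 gene beside MMP1, followed it closely. Its signal was 586.289 with DMSO, 79.5088 under the inhibitor, 927.577 with the control siRNA and 649.497 with MET siRNA. MMP10 fell by 2.67 on the log2 scale with PHA665752, or 6.36-fold, and by 1.97 with normexp, another background correction. It was 1.48-fold lower with MET siRNA than with sc siRNA and 1.89-fold higher with sc siRNA than with DMSO, both short of 2-fold.

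MMP3, stromelysin-1, which cuts many matrix proteins and activates proMMP1, behaved differently with the inhibitor. Its signal was 211.872 with DMSO and 114.265 with the inhibitor, and 467.706 with sc siRNA against 278.987 with MET siRNA. The inhibitor array was the lowest again, but by 1.60-fold only (log2 ratio -0.68). The siRNA pair gave a similar 1.73-fold (log2 ratio -0.79), while sc siRNA rose 2.63-fold above DMSO. Within the inhibitor pair, the log2 ratio of MMP1 was lower than that of MMP3 by 2.22 and that of MMP10 by 1.99, differences that no constant scaling of an array alters. Within the siRNA pair the same differences were -0.013 for MMP1 and 0.23 for MMP10.

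MMP10, MMP1 and MMP3 are adjacent in a run of 9 MMP genes on chromosome 11, in the order MMP7, MMP20, MMP27, MMP8, MMP10, MMP1, MMP3, MMP12 and MMP13. These 3 were well above background on every array, and the other 6 on none. Over all 18755 genes with a value on every array, 13073 besides MMP1 were well above background on every array. The collagenase gene MMP13 at the end of the run read 2.27, 4.51, 2.09 and 3.56, below the lowest signal well above background of each array. MMP13 therefore had no ratio, and a change in it was not detectable at this signal.

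The gelatinases gave little signal. MMP9, gelatinase B, read 126.972 with DMSO and 120.436 with the inhibitor, then 83.8959 with sc siRNA and 87.0303 with MET siRNA, each from 9 or 10 spots. Its log2 ratio was 0.14 (SE over spots 0.0271) for PHA665752 over DMSO and 0.0061 (SE over spots 0.0400) for MET siRNA over sc siRNA, and with the 50th percentile for scaling the former became -0.11. Both siRNA arrays read lower than both others, and sc siRNA lay 0.34 below DMSO on the log2 scale. MMP2, gelatinase A, read 2.42, 2.59, 36.5 and 3.69 in the same order and was well above background on the sc siRNA array alone. This rests on 1 spot, whose raw median was 74.0 over a local background of 27.0, against raw medians of 35.0 to 39.0 elsewhere. Set against the lowest signal well above background, MMP2 was at least 4.01-fold higher with sc siRNA than with DMSO and at least 2.17-fold lower with MET siRNA than with sc siRNA. With a normexp background correction these log2 ratios were 0.88 and -0.49, both short of 2-fold.

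MMP14, the membrane-type enzyme that cleaves collagen at the cell surface and activates proMMP2, fell with the inhibitor. Its signal was 19912.2 in DMSO cells and 5473.83 in inhibitor-treated cells, and 15207.5 and 12874.1 in cells given sc siRNA and MET siRNA. The inhibitor array stood alone at the low end, 1.65 below DMSO on the log2 scale, or 3.14-fold. The log2 ratio was -0.29 in the siRNA pair and -0.14 for sc siRNA over DMSO, so MMP14 lacked the rise with sc siRNA that MMP1 and MMP3 had. The ratio of MMP1 exceeded that of MMP14 in this last pair by 1.26 on the log2 scale.

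Of the inhibitors, TIMP2 rose and TIMP1 varied little. TIMP2 read 74237.5 in DMSO cells and 138614 in inhibitor-treated cells, and 60871.6 and 73038.6 in cells given sc siRNA and MET siRNA. It was 2.17-fold higher with PHA665752 (log2 ratio 1.11), and 0.87 with the 50th percentile for scaling, which is short of 2-fold. In the siRNA pair its log2 ratio was 0.22, and -0.084 when arrays were scaled to the median of probes well above background. TIMP1, a broad MMP inhibitor, read 8781.34, 9377.57, 7226.81 and 7915.42. Its log2 ratios were 0.31 for PHA665752, 0.085 for MET siRNA (-0.22 with that other scaling) and -0.028 for sc siRNA. TIMP3, which binds to the matrix, read 2.92, 3.07, 2.51 and 4.48 and was on no array well above background.

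**Figure D2:**
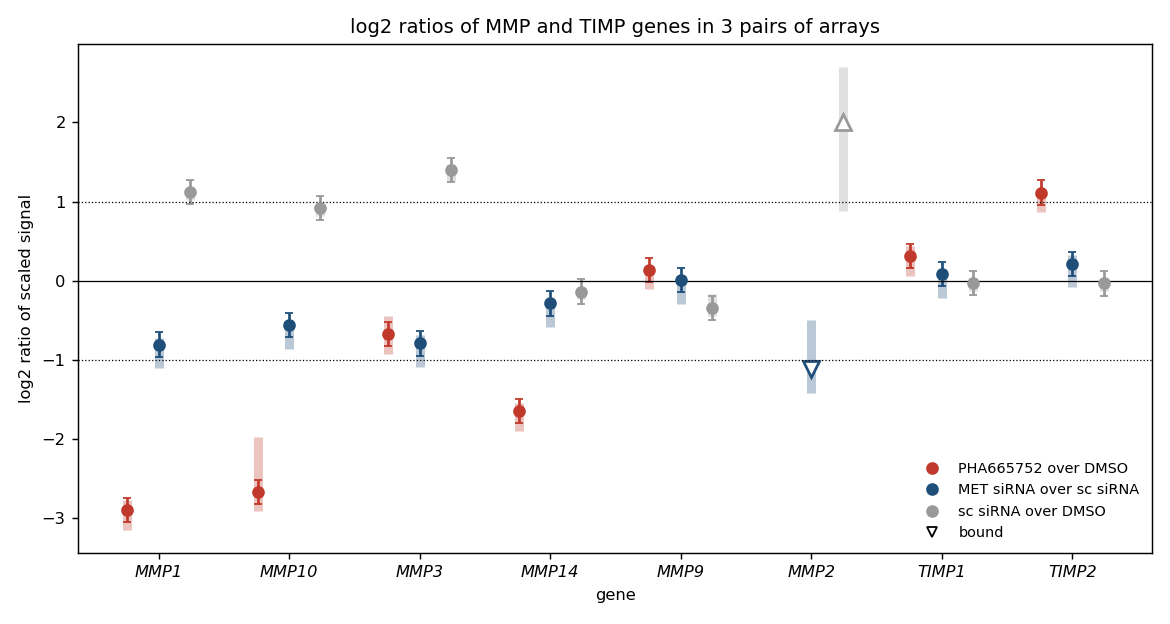
log2 ratios of scaled signal for the 8 genes with a ratio in at least 1 pair, in red for PHA665752 over DMSO, blue for MET siRNA over sc siRNA and grey for sc siRNA over DMSO. Bars on points are the 95% band of typical spot noise, drawn the same for every gene. Pale bars are the range over the alternative settings apart from the one without a filter on dim probes. Triangles are bounds and dotted lines mark 2-fold. MMP1, MMP10 and MMP14 lay below -1 with PHA665752, and MMP1 and MMP3 above 1 with sc siRNA.

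With PHA665752, 4 of the 7 genes with a ratio passed 2-fold, MMP1, MMP10 and MMP14 lower and TIMP2 higher. Over all 14322 genes with a ratio, 21.1% passed 2-fold, 8.04% lower and 13.1% higher. The median log2 ratio of the 7 was -0.68, beside 0.075 over all genes. With no filter on dim probes all 10 genes had a ratio and the median turned to 0.21, beside 0.20 over all genes. From the lowest ratio upwards MMP1 was number 79, MMP10 number 103, MMP14 number 431 and MMP3 number 2059 of the 14322, and 11.1% of genes had a higher ratio than TIMP2.

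With MET siRNA over sc siRNA, 1 of the 8 genes with a ratio passed 2-fold, MMP2, on its bound from 1 spot. MMP2 had a ratio only through the sc siRNA array, and the count was 0 with normexp and when both arrays had to be well above background. Over all 13647 genes 2.73% passed, 0.696% lower and 2.04% higher. The median of the 8 was -0.42, beside -0.017 over all genes. MMP1 was number 181 from the lowest, MMP3 number 185, MMP10 number 440 and MMP14 number 1905 of the 13647. MMP1, MMP3 and MMP10 thus had few genes below them without passing 2-fold.

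With sc siRNA over DMSO, 3 of the 8 genes with a ratio rose past 2-fold, MMP1, MMP2 (bound) and MMP3. Over all 14274 genes 4.05% passed, 2.89% higher and 1.16% lower. The median of the 8 was 0.44, beside -0.010 over all genes, but MMP2 entered only through the sc siRNA array where it was high. When both arrays had to be well above background, MMP2 was left out and the median of the other 7 turned to -0.028. MMP3 was number 224, MMP1 number 341 and MMP10 number 482 from the highest. This pair sets cells given the control siRNA against cells given the solvent. Transfection cannot be told apart from any other difference between these cultures. The DMSO array stands in both the first and this pair and the sc siRNA array in both of the last, so the 3 sets of ratios are not independent of each other.

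**Figure D3:**
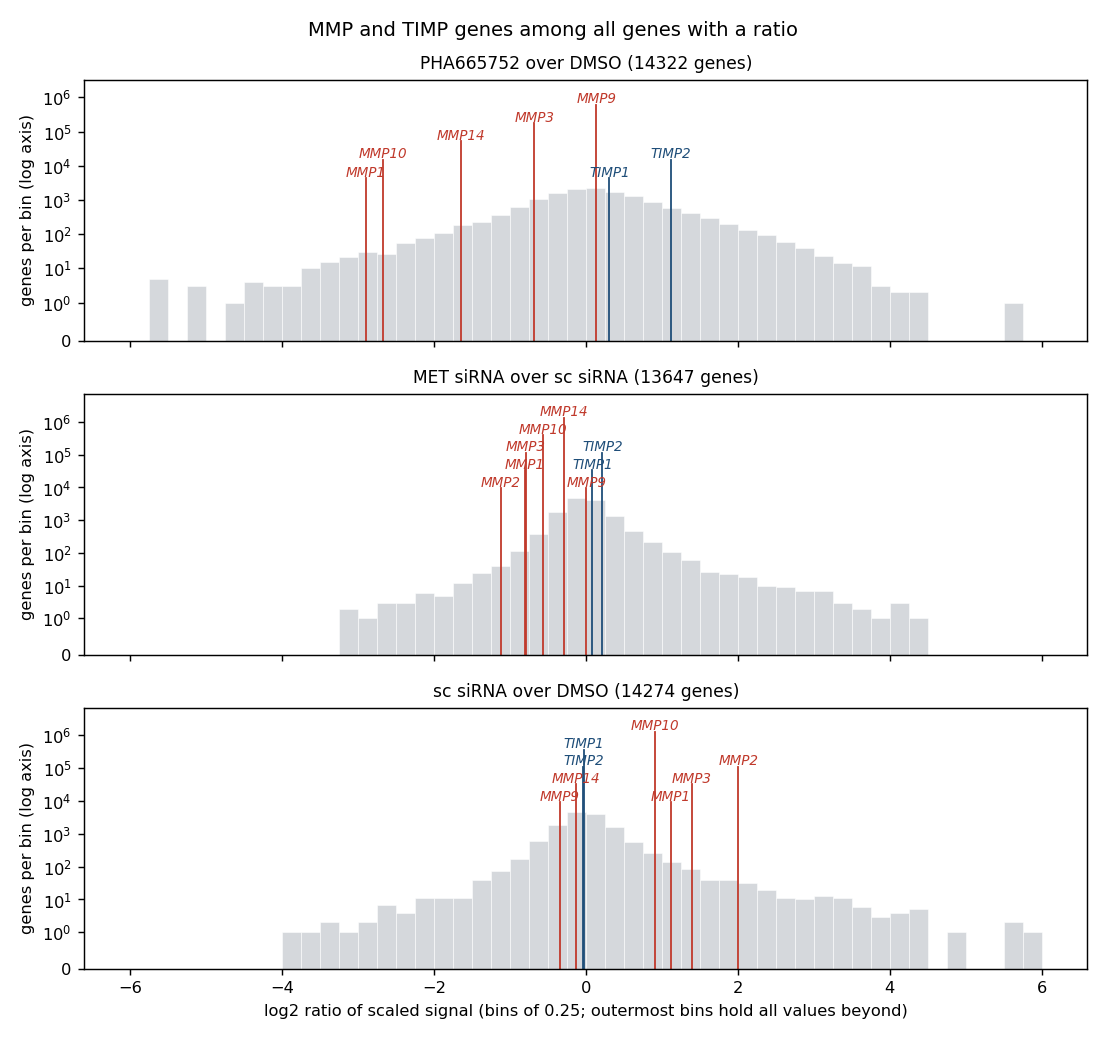
Number of genes in bins of the log2 ratio (grey, log axis) in each pair, with lines at the ratios of MMP genes (red) and TIMP genes (blue); the height of a line has no meaning. MMP1 and MMP10 lay in the low tail with PHA665752, where the spread of all genes was widest, and MMP2, MMP3, MMP1 and MMP10 in the high tail for sc siRNA over DMSO.

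The RNA signal of an enzyme was set against that of an inhibitor by the difference of their log2 ratios within a pair. No constant scaling of an array alters this difference. Protein amounts, activation of proenzymes and binding by TIMPs were not measured. MMP14 fell against TIMP2, its partner in proMMP2 activation, by 2.76 on the log2 scale with PHA665752, or 6.79-fold. In the siRNA pair this difference was -0.50. MMP2 itself was not well above background on either array of the PHA665752 pair. MMP1 fell against TIMP1 by 3.21 with PHA665752, or 9.23-fold, and the difference was -0.89 with MET siRNA and 1.15 for sc siRNA over DMSO. MMP10 against TIMP1 gave -2.98, -0.65 and 0.94 in the same order. MMP3 against TIMP1 gave -0.99, -0.88 and 1.42, and MMP9 against TIMP1 gave -0.17, -0.078 and -0.32. Between the inhibitors, the ratio of TIMP2 was above that of TIMP1 by 0.81 with PHA665752, and differed by 0.13 and -0.0053 in the other pairs.

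Over the 4 arrays the scaled log2 signal spanned 4.02 for MMP1, 3.58 for MMP10, 2.07 for MMP3, 1.65 for MMP14, 1.15 for TIMP2, 0.48 for MMP9 and 0.34 for TIMP1. Likeness of pattern was measured as the Euclidean distance between log2 values centred on each gene's mean over the 4 arrays, among 13073 other genes well above background. Nearest to MMP1 were MMP10 (0.31), the bestrophin channel gene BEST3 (0.43) and ANGPTL4, a secreted inhibitor of lipoprotein lipase (0.59). Nearest to MMP10 were BEST3 (0.29), MMP1 (0.31) and the diacylglycerol kinase gene DGKG (0.46). MMP3 lay 1.78 from MMP1 and 1.11 from MMP14. With 4 arrays many genes share a pattern, and these distances are a description.

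Members of the family outside the 10 genes did not share the pattern of MMP1 with PHA665752. Of 16 other MMP genes, 8 were well above background on every array, beside 13073 (MMP1 not counted) of 18755 genes with a value. Over all genes with a ratio, 13.1% rose and 8.04% fell past 2-fold with PHA665752. Of the 8, 5 rose past 2-fold and none fell, with a median log2 ratio of 1.28. These were MMP11 (1.95), MMP15 (1.88), another membrane-type enzyme, MMP23B (1.82), MMP24 (1.32) and MMP19 (1.25). With normexp the log2 ratios were 1.14 for MMP11, 1.51 for MMP15 and 0.88 for MMP19, the last short of 2-fold, and MMP23B lay at the 2-fold limit. MMP11 read 39.0, 130, 28.7 and 46.8 and MMP15 165, 523, 274 and 402 in the order of the arrays. None of the 8 passed 2-fold in the siRNA pair, beside 2.73% of all genes. The median there was 0.31, and 0.014 with the median of probes well above background for scaling. Over the alternatives, 4 to 7 genes of this list were past 2-fold higher with PHA665752 and none lower. RECK, a membrane-anchored MMP inhibitor, read 641, 1242, 527 and 690, with log2 ratios of 1.17 with PHA665752 (0.92 with the 50th percentile) and 0.34 with MET siRNA. The other 3 inhibitor genes of that list were not well above background.

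The urokinase system, which makes plasmin that activates several proMMPs, moved in both directions with PHA665752. Its protease PLAU read 192412, 48542.4, 121059 and 84696.7 and fell by 1.77 on the log2 scale with PHA665752. The receptor PLAUR fell by 1.41, and the dim inhibitor gene SERPINB2 rose by 1.23 (0.50 with normexp). The other 5 of the 8 genes with a ratio did not pass 2-fold, while 21.1% of all genes passed. In the siRNA pair none of these genes passed, beside 2.73% of all genes, with log2 ratios of -0.56 for PLAU and -0.54 for PLAUR. Of 16 genes for transcription factors that act on MMP promoters, 5 rose and 4 fell past 2-fold with PHA665752, with a median of 0.037. The shares over all genes were 13.1% and 8.04%. With the 50th percentile for scaling 2 of the 16 were higher and 5 lower past 2-fold, and with quantile normalization 4 were higher and 5 lower. The AP-1 subunit gene FOSL1 read 8348.92, 703.242, 6711.66 and 4010.42, a fall of 3.36 on the log2 scale, and the ETS factor genes ETV5 and ETV4 fell by 3.37 and at least 3.07 (log2 ratios of -2.49 and -1.02 with normexp). FOS and FOSB, other AP-1 subunits, rose by 1.96 and 1.91. In the siRNA pair none of the 15 with a ratio passed 2-fold, beside 2.73% of all genes. The log2 ratios there were -0.79 for FOSL1, -0.66 for ETV5, -0.64 for ETV4, 0.42 for FOS and 0.44 for FOSB. In the other pair, sc siRNA over DMSO, FOS and FOSB were lower by 1.33 and 1.66. Of the promoters shown, MMP10 held the AP-1 consensus, MMP14 held no AP-1 or PEA3 letters, and TIMP1 held TGAGTAA and AGGAAG. A link of these factors to the MMP and TIMP values was not tested, and no binding was measured.

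**Figure D4:**
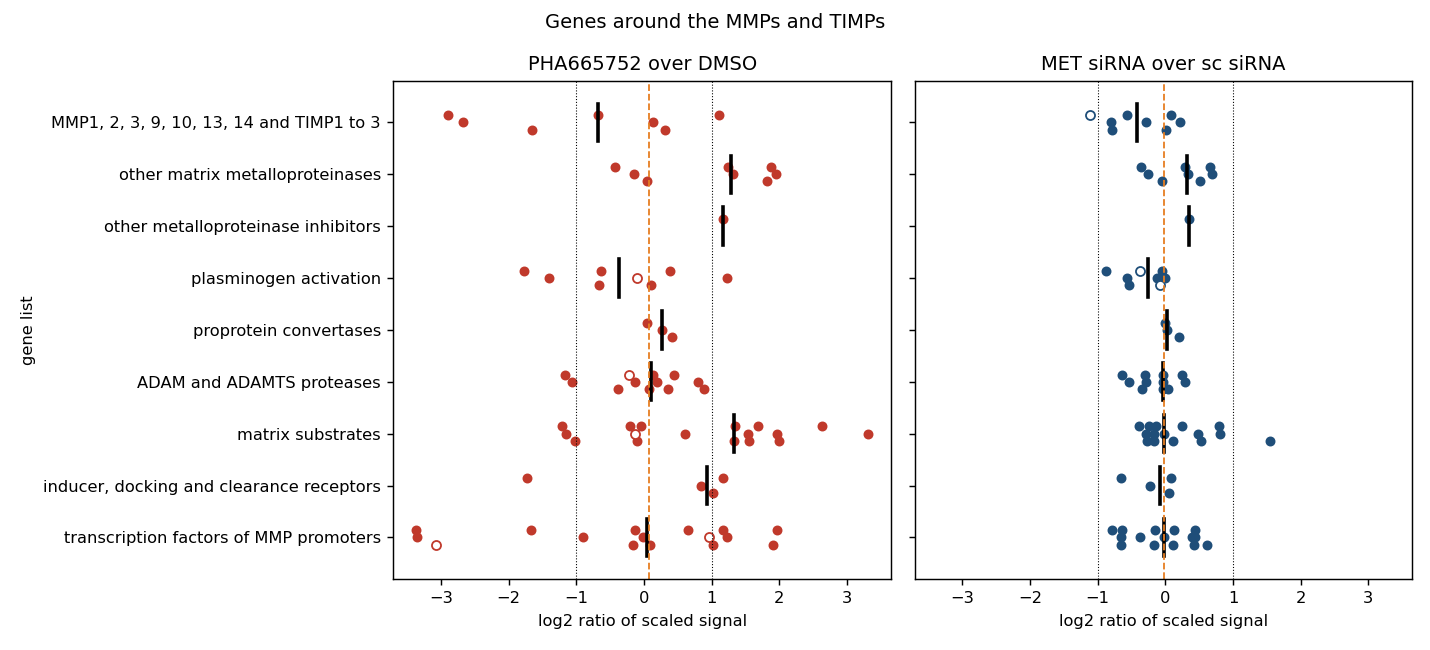
log2 ratios of scaled signal of each gene with a ratio in 9 gene lists, for PHA665752 over DMSO (left) and MET siRNA over sc siRNA (right). Open points are bounds, black bars list medians, the orange dashed line the median over all genes and dotted lines 2-fold. The other MMP genes, RECK (alone in its list) and the matrix substrates had medians above 1 with PHA665752 at the settings plotted, where the 7 described genes with a ratio had a median of -0.68. With normexp the substrates had a median of 0.63 and the other MMP genes 0.94, with quantile normalization the substrates 0.99, and with the 50th percentile RECK had 0.92.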

How the data were processed

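Single-colour Agilent human gene expression arrays (V2) were analysed, 1 for each of 4 groups taken from the sample labels. The authors deposited scanner output whose processed signal is an intensity, made by Feature Extraction 11.5.1.1 per the file headers, with background subtracted, on probes annotated on hg19. Their value table holds the same intensity on a linear scale as deposited, uncentred and with column medians of 81.4 to 93.0, differs from the scanner files by at most 0.05 for probes spotted once, and served as an alternative. How it combines spots of 1 probe is not given in the sources used here.

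Spots marked as outliers and control spots were left out, spots of a probe averaged, and log2 signals lowered by the 75th percentile of the array (Python 3.11.15, numpy 2.4.6, pandas 2.3.3; matplotlib 3.10.9 for figures; R 4.3.3 with limma 3.58.1 for normexp, offset 50). A gene was represented by its brightest probe with a value on every array. A ratio needed at least 1 array of the pair well above background. Where 1 array was not, the larger of its signal and the lowest signal well above background was used, and the ratio given as a bound. No ratio was given where the brighter array did not exceed that value, as for CDH1, ACAN and ADAMTS2 in the siRNA pair. The lowest signal well above background was 17.4 on the MET siRNA array and 10.2 to 12.3 on the others. The 75.5% of probes with a gene name were named through RefSeq accessions (GRCh38.p14). The calculation was tested on simulated data with spot noise alone and changes set past 2-fold. Such data hold no spread between cultures, so they check the arithmetic and not the calls. The number of arrays limits precision, as do single spots and signals near background, and no test was made.

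All 10 members were named; of other lists, at most 5 genes past 2-fold in either MET pair, by size; for the members with the widest range, the 3 nearest genes; and MET. Members and lists were chosen with earlier results of these data known. Alternatives were other percentiles and scalings, quantile normalization, normexp, plain background subtraction, filters on dim probes and outlier marks, the deposited value table, the median over probes and a 1.5-fold limit.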

Additional observations from a re-analysis of the deposited data

How the results depend on the processing

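No single gene reversed the sign of a called ratio under any alternative. The median over the genes for PHA665752 was -0.92 with the 50th percentile, -0.86 with quantile normalization and -0.44 with normexp, and turned to 0.21 with no filter on dim probes, where 10 genes had a ratio and the median of all genes was 0.20. For MET siRNA over sc siRNA, the count past 2-fold was 3 with the median of probes well above background and with a 1.5-fold limit, and 0 with normexp and when both arrays had to be well above background. The median of that pair was -0.72 with the median of probes well above background, a scaling that moved all genes to -0.31, and -0.14 with no filter. For sc siRNA over DMSO, the median turned to -0.028 when both arrays had to be well above background, which leaves MMP2 out, and was 0.084 with no filter. The 50th percentile moved the median of all genes to -0.17 for PHA665752. MMP1 ranged from -3.14 to -2.77 with PHA665752, from -1.11 to -0.72 with MET siRNA and from 1.02 to 1.14 with sc siRNA, MMP10 from -2.91 to -1.97 with PHA665752 and MMP14 from -1.90 to -1.54. The causes of these shifts were not tested beyond the changes in genes entered. With 1 array per group no array could be left out. No paired analysis was possible because each group held 1 array and the labels carry no replicate numbers. Probes near background, MMP2, MMP13 and TIMP3, were limited by signal.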

Other observations

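Of 20 genes for matrix proteins that MMPs cut, 17 had a ratio with PHA665752, of which 9 rose past 2-fold and 3 fell. Over all genes 13.1% rose and 8.04% fell. The median log2 ratio of the 17 was 1.33, beside 0.075 over all genes. With normexp 6 of 16 were higher and 2 lower past 2-fold, with a median of 0.63, and with no filter on dim probes the median was 0.61. The collagen I genes COL1A1 and COL1A2 read 771 and 1216 with DMSO and 6631 and 4182 with PHA665752, so that COL1A1 rose by 3.32 on the log2 scale. The laminin chain gene LAMA3, the fibronectin gene FN1 and the decorin gene DCN rose by 2.63, 1.96 and 1.69 (DCN 0.81 with normexp). In the siRNA pair 1 of 15 passed, COL1A1 at 1.54, beside 2.73% of all genes, and the median was -0.025.

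Among genes for receptors that induce, dock or clear MMPs, the integrin gene ITGB3 fell by 1.73 on the log2 scale with PHA665752, while LRP1 rose by 1.17 (0.88 with normexp) and CD44, a docking site for MMP9, by 1.02 (0.77 with the 50th percentile). Their log2 ratios in the siRNA pair were -0.65, 0.054 and -0.22. Of 17 ADAM and ADAMTS genes, 12 had a ratio with PHA665752, and ADAM19 and ADAMTS9 fell by 1.16 and 1.06 (ADAMTS9 -0.26 with normexp). No other gene of that list passed 2-fold there, while 21.1% of all genes passed. None of the 3 proprotein convertase genes with a ratio passed 2-fold in any pair. Over all genes 21.1% (PHA665752), 2.73% (MET siRNA) and 4.05% (sc siRNA over DMSO) passed.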
